A study of Mus musculus with 2 samples.

Results

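The ectodysplasin pathway was followed through 5 genes in the single-cell libraries of dorsal skin: the ligand Eda, its receptors Edar and Eda2r, the adaptor Edaradd and the related receptor Tnfrsf19. The genes were taken by symbol from the 32285 genes of the deposited count tables, where each symbol named 1 row. The study asked how skin changes in a mouse model of androgenetic alopecia (AGA). Male C3H/HeN mice were 7 weeks old at the start, had their backs shaved and were 9 weeks old at harvest, and received either vehicle (Con) or testosterone propionate (TP) at 0.5 mg per day under the skin. The dorsal skin of 15 mice was pooled for each group and gave 1 library, so the contrast compares a pair of libraries, without replicates, and no p-value or standard error exists for any value here. The TP + Ab group was not analysed here. All intervals are 95% intervals for counting error only, and they do not cover differences between animals, dissociations or libraries.

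EDA is a membrane-bound ligand of the TNF superfamily that is released from the cell surface by furin. Splicing gives forms that differ by a pair of residues, of which EDA-A1 binds EDAR and EDA-A2 binds EDA2R (XEDAR), and the counts, which come from the ends of transcripts, cannot tell these forms apart. EDAR signals through EDARADD and the TRAF6, TAB2 and TAK1 proteins to NF-kB, and loss of EDA, EDAR or EDARADD causes hypohidrotic ectodermal dysplasia, with missing hair, teeth and sweat glands. In the embryo the pathway shapes hair placodes, and TNFRSF19 (TROY) is a receptor close to EDAR with an overlapping role in hair development.

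In the GRCm38.p6 annotation of RefSeq, the span of Eda is chrX:99975606-100400760 and that of Edar is chr10:58600780-58675696. Edaradd lies at chr13:12471209-12520535, Eda2r at chrX:97333837-97377234 and Tnfrsf19 at chr14:60963834-61046855. All 5 symbols matched. The 250 bases before the start of the genes with their highest, or jointly highest, control level in 1 and the same cluster, Eda, Edar and Edaradd, are shown because these genes are described together below. They are given 5′ to 3′ on the strand of the gene, with capitals for matches on either strand to the LEF/TCF core CTTTGA or to a kappaB motif, the letters GGGA and CC with 4 free bases between them. The start used for Edaradd lies inside its annotated span.
Eda, chrX:99975356-99975605, plus strand: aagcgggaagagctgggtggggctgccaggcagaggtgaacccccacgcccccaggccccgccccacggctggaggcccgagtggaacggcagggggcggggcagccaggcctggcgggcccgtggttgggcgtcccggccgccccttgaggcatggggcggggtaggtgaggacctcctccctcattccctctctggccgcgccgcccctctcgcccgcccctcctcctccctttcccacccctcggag
Edar, chr10:58675697-58675946, minus strand: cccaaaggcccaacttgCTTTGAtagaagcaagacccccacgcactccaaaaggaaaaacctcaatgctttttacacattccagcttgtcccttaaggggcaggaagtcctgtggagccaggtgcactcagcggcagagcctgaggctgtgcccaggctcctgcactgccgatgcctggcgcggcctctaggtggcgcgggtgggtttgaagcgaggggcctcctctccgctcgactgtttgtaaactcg
Edaradd, chr13:12520451-12520700, minus strand: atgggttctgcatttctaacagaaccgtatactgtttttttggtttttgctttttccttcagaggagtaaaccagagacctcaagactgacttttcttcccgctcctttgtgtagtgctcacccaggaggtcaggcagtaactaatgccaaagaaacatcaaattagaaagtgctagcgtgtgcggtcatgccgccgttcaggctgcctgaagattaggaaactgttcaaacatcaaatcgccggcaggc
The Edar stretch held 1 match to CTTTGA, which begins 233 bases before the start, and the other stretches held no match to either motif. Of the 32851 promoters searched over the same length, 13.8% held CTTTGA and 17.6% held the kappaB motif. The Eda stretch was 75.6% G or C, against 58.8% for Edar and 46% for Edaradd.

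The control library kept 39076 cells with 107169943 UMIs (unique molecular identifiers, each a captured transcript) and the TP library 18542 cells with 132696112 UMIs, with medians of 2050 and 4841 UMIs per cell. The cells fell into 31 clusters, of which 23 took a class name from marker genes and 8 took none. Markers of interfollicular epidermis (IFE), hair follicle, dermal papilla, fibroblasts, endothelium, melanocytes and immune cells were all found, and no cluster took the name of sebocytes, adipocytes or Schwann cells. The deposited libraries shared 303 barcode strings. Lymphocyte-like and myeloid-like cells should lack the inner root sheath keratin Krt71. They held it at 804.5 UMIs per 1000000 (CPM) in control, against 112.3 CPM in TP. Whether free RNA or remaining doublets gave these UMIs was not tested. These immune cells held Eda at 181.1 CPM in control (154 UMIs) and 23.6 CPM in TP (46 UMIs), Edar at 16.5 and 1.54 CPM, Edaradd at 42.3 and 9.75 CPM and Tnfrsf19 at 89.4 and 29.8 CPM. Their make-up also differed, since 324 of the 420 cells were lymphocyte-like in control and 183 of 498 in TP. In lymphocyte-like cells alone Krt71 was at 924.3 and 223.5 CPM, Eda at 185.5 and 53.1 CPM, Edar at 8.59 and 8.38 CPM (5 and 3 UMIs), Edaradd at 51.5 and 39.1 CPM and Tnfrsf19 at 101.4 and 75.4 CPM. Values with a background subtracted are given below for both immune classes pooled and for lymphocyte-like cells alone. The lymphocyte-like cluster scored 8.25 for lymphocytes and 7.24 for neutrophils, with Cxcl2 and S100a9 among its 10 leading genes. Its own make-up may therefore differ between the libraries too. A level near these values is not told apart from background below. A lower level in TP of such cells is not read as a difference of the cells. The immune level is not a floor for all cells. In control, inner root sheath-like cluster 2 held Eda at 97.1 CPM and Edar at 4.67 CPM. Its median depth was 1962.5 UMIs, against 1558.5 UMIs in the immune cells. Subtraction may therefore take away too much, and it also assumes an equal background share in cells of unlike depth.

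Over all kept cells, 4 of the 5 genes had a lower level in TP than in control. Edar was at 22.7 CPM in control (2435 UMIs) and 13.3 CPM in TP (1768 UMIs), a ratio of 0.586 (interval 0.551 to 0.624). For the adaptor Edaradd the levels were 68.0 CPM (7287 UMIs) and 45.8 CPM (6082 UMIs), a ratio of 0.674 (0.651 to 0.698). For the ligand Eda the ratio was 0.722 (0.711 to 0.734), from 293.6 to 212.1 CPM, and for Tnfrsf19 it was 0.778 (0.763 to 0.793), from 190.9 to 148.6 CPM. Eda2r was sparse, with 145 UMIs in control and 202 in TP, and its ratio of 1.13 (0.904 to 1.40) did not leave 1. An interval below 1 was found for 55.6% of the 17574 genes with at least 50 UMIs, and the median ratio of these genes was 0.853, so the lower levels of the 4 genes are not particular to them. An interval above 1 was found for 28% of genes and for none of the 5. None of the 5 genes differed at least 2-fold, a size that 18.2% of all genes reached. With the level of the pooled immune cells subtracted in each library the ratios were above 1, at 1.68 for Eda, 1.88 for Edar, 1.41 for Edaradd and 1.17 for Tnfrsf19. With that of lymphocyte-like cells alone Eda stayed above 1, at 1.47, and the others were below it, at 0.350 for Edar, 0.408 for Edaradd and 0.816 for Tnfrsf19. So for Edar, Edaradd and Tnfrsf19 the side of 1 under subtraction depended on which immune cells were subtracted. For Edar the pooled immune level rests on 14 UMIs in control and 3 UMIs in TP. Its control interval of 9.00 to 27.6 CPM holds the whole-library level of 22.7 CPM, so the subtracted ratio of 1.88 is not bounded. In lymphocyte-like cells alone the TP level of Edar rests on 3 UMIs, and its interval of 1.73 to 24.5 CPM holds 13.3 CPM. Their Edaradd intervals, 34.8 to 73.6 CPM in control and 21.4 to 65.6 CPM in TP, hold 68.0 and 45.8 CPM. The ratios of 0.350 and 0.408 are therefore not bounded either.

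The clusters with the highest Edar levels, 0 and 16, made up a smaller part of the TP library, while cluster 7 and the lower outer root sheath-like cluster 15, which also held Edar, made up a larger one. When the levels of control were kept in each cluster and the clusters were given the weights they had in TP, the whole-library ratio was 0.552 for Edar, 0.727 for Eda, 0.828 for Tnfrsf19 and 0.882 for Edaradd, beside observed ratios of 0.586, 0.722, 0.778 and 0.674. With the levels of TP and the cluster weights of control the ratios were 1.18 for Edar, 1.07 for Eda and 1.11 for Tnfrsf19, above 1. Edaradd remained below 1 in this reckoning, at 0.821. For Eda2r the values were 1.44 for cluster make-up alone and 0.798 for levels alone. They rest on few UMIs per cluster, such as 8 in control in dermal fibroblast-like cluster 20. The observed Eda2r ratio of 1.13 (0.904 to 1.40) did not leave 1, so no direction is read from them. Fewer cells of a type in the skin and fewer cells of it recovered cannot be told apart in shares of a pooled library.

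**Figure D1:**
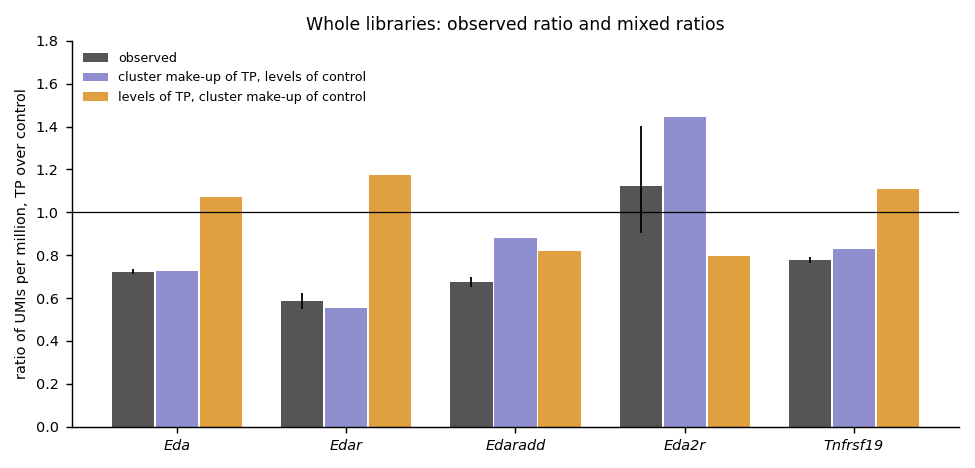
Ratio of CPM of TP over control for each gene: as observed over all kept cells (grey, with exact 95% counting intervals), with control levels and the TP cluster make-up (violet) and with TP levels and the control cluster make-up (orange). For Edar the observed ratio of 0.586 lies beside 0.552 from make-up alone, while levels alone give 1.18.

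Edar, the receptor of EDA-A1, was gathered in 3 clusters, singled out after their Edar levels were seen, which together held 72.1% of its UMIs in control and 69.9% in TP. Cluster 0 was led by Kcnip1, Shh, Mapk4, Edar and 9530036O11Rik and took the name of germinative layer-like (hair matrix) cells at a marker score of 0.961, near the score of 0.9 that a name needed. Cluster 7, led by Hist1h2ae, Hist1h3c, Hist1h3f, Hist1h2ap and Pclaf, mostly histone genes of replicating cells, was germinative layer-like at a score of 0.962 and had a cycling score of 2.14. Cluster 16 was led by Ntn1, Tmtc1, Sox5os4, Sox5 and Eda, had its best class at a score of only 0.321 and stayed unnamed. The unnamed clusters 8 and 17 scored higher for the germinative layer than clusters 0 and 7, at 1.40 and 1.48. They held Edar at only 9.49 and 16.1 CPM in control, so Edar did not follow this score. Clusters 0, 7 and 16 held 9.50%, 4.50% and 4.16% of control cells and 2.52%, 5.44% and 1.63% of TP cells.

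In control, the Edar level was 131.6 CPM in cluster 16 (431 UMIs, interval 119.5 to 144.6) and 128.6 CPM in cluster 0 (961 UMIs, 120.6 to 137.0), and these levels overlapped. Myeloid-like cluster 30 had 55.0 CPM from only 6 UMIs in 39 cells, and it overlapped with cluster 7 at 39.9 CPM (363 UMIs). In TP, cluster 0 came first with 200 CPM (397 UMIs, 180.8 to 220.6), followed by cluster 16 with 150.1 CPM (159 UMIs, 127.7 to 175.3) and cluster 7 with 58.9 CPM (680 UMIs), and none of these neighbours overlapped. Lower outer root sheath-like cells (cluster 15) came next in TP with 28.6 CPM (246 UMIs), and had 17.7 CPM in control (26 UMIs). This cluster scored 2.37 for that sheath, which surrounds the lower follicle, and 2.01 for the outer bulge, a name that no cluster took. The control level there was within the interval of the immune cells' 16.5 CPM, while the TP level was above their 1.54 CPM. Myeloid-like cells as a whole held 9 UMIs of Edar in control and 0 in TP. In dermal papilla-like cells, the mesenchyme that instructs the follicle, Edar was at 5.47 CPM in control and 1.61 CPM in TP, at or below the immune cells in control and near them in TP.

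**Figure D2:**
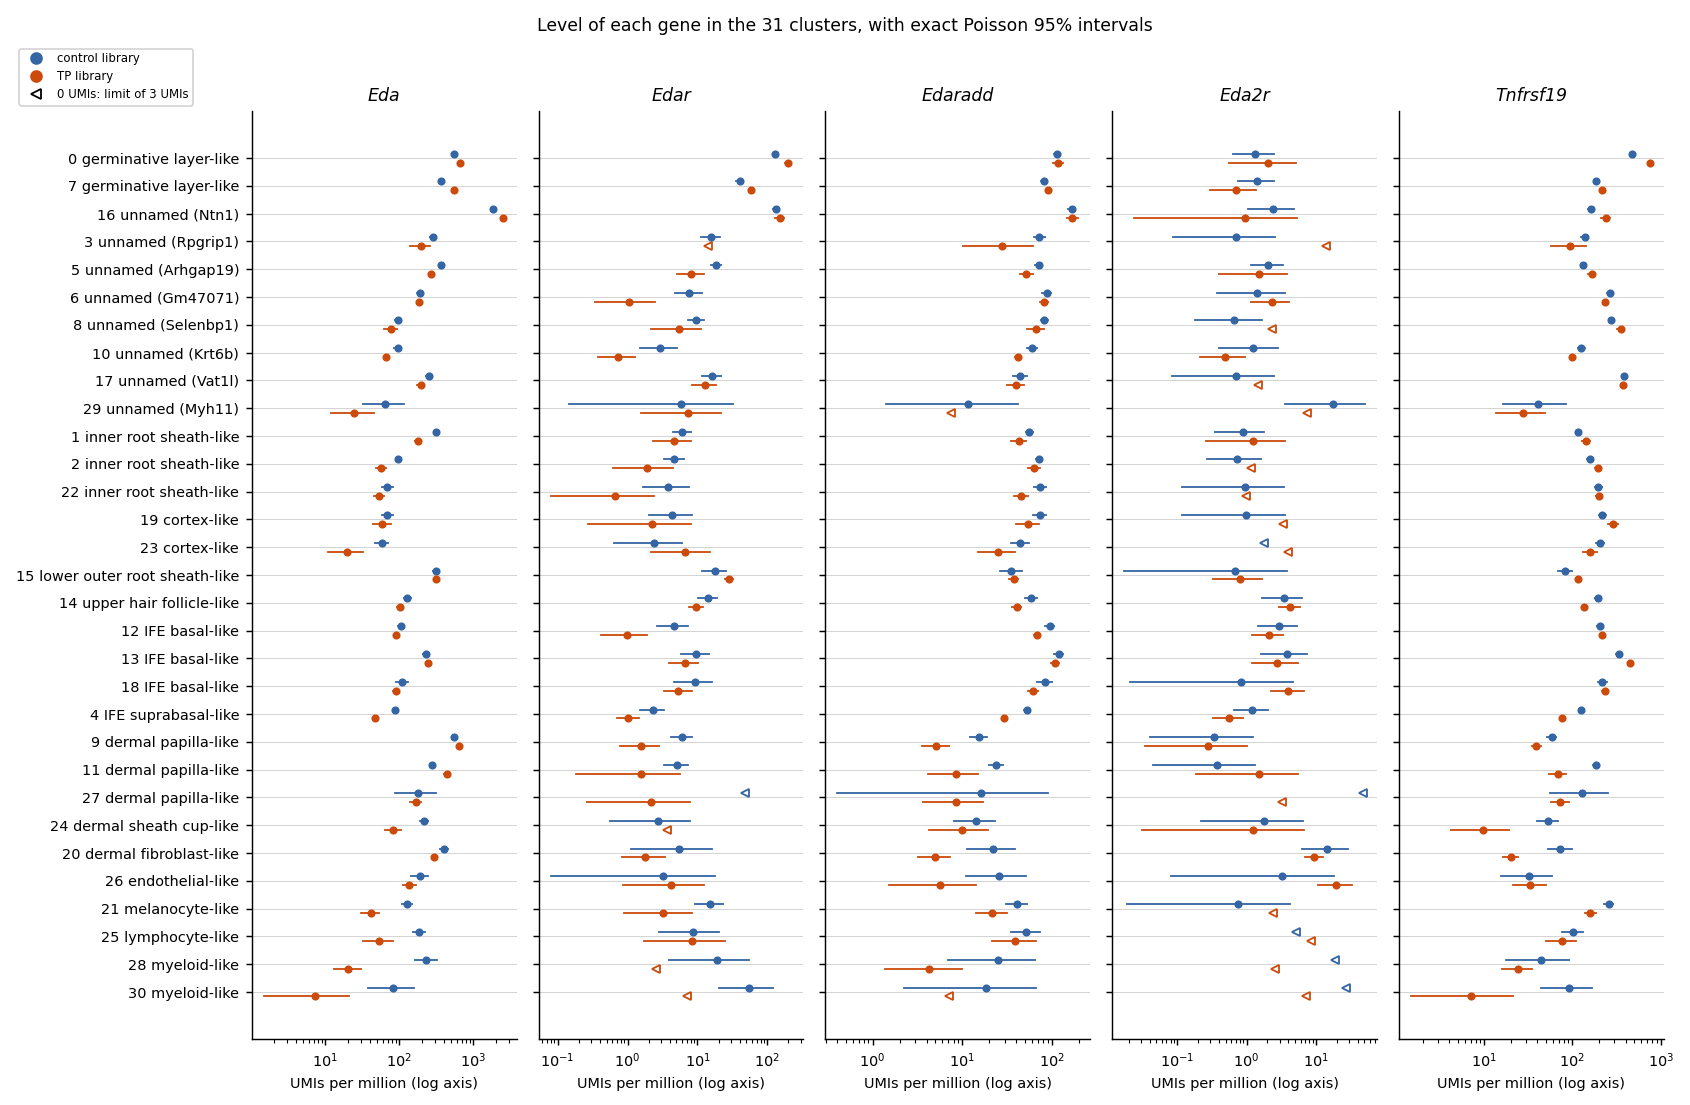
Level of each gene in CPM (log axis) in the 31 clusters, grouped by class, for the control (blue) and TP (orange) libraries, with exact Poisson 95% intervals; open triangles mark clusters with 0 UMIs at the limit that 3 UMIs would give. Edar stands out in clusters 0, 7 and 16, Eda in cluster 16 at 1836 CPM in control and 2560 CPM in TP, and Edaradd is broad over the epithelium.

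In none of clusters 0, 7 and 16, each taken alone, was the Edar ratio below 1. Its level in TP was 1.56 times that of control in cluster 0 (interval 1.38 to 1.75) and 1.47 times in cluster 7 (1.30 to 1.68), while in cluster 16 the ratio of 1.14 (0.945 to 1.37) did not leave 1. Over the 3 clusters together, whose weights differed between the libraries, it was 0.957 (0.889 to 1.03). Over both germinative layer-like clusters together the ratio was 0.995 (0.917 to 1.08), from 79.9 to 79.6 CPM. Cluster 0, with the higher Edar level, held most of these cells in control (3711 of 5469) and cluster 7 most of them in TP (1009 of 1477), so the class value mixes a change of make-up with the levels. At resolution 2, most cells of cluster 0 fell into 2 finer clusters, and Edar went from 171.7 to 253.4 CPM in the one and from 99.8 to 147.4 CPM in the other. In a smaller one, of 124 control and 53 TP cells, it was at 158.5 and 153.5 CPM. Cluster 7 also split, with Edar at 41.5 and 74.7 CPM in one finer cluster, 33.1 and 47.3 CPM in another, and 55.9 and 52.2 CPM in the last, of 247 control and 307 TP cells, where it was not higher. With the pooled immune level subtracted in each library the ratio was 1.77 in cluster 0 and 2.44 in cluster 7, and with that of lymphocyte-like cells alone it was 1.60 and 1.61. Cluster 7 cells were deeper than the immune cells, with medians of 5024.5 against 1558.5 UMIs in control and 11165 against 3418 UMIs in TP. Subtraction may therefore take away too much in cluster 7. In the lower outer root sheath-like cells the ratio was 1.62 (1.08 to 2.53). In other clusters Edar was lower in TP, as in the unnamed cluster 5 with 18.6 and 8.20 CPM (ratio 0.441, 0.268 to 0.693), where the control level was near the immune cells' 16.5 CPM.

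After each cell was thinned to 1000 UMIs, a UMI of Edar was found in 9.18% of cluster 0 cells in control (298 of 3247, Clopper-Pearson interval 8.21 to 10.2%) and in 16.7% in TP (73 of 436, 13.4 to 20.6%), and the intervals did not overlap. The shares were 4.18% and 4.78% in cluster 7, and 10.7% and 12.8% in cluster 16, with overlapping intervals in both. Without thinning the shares in cluster 0 were 16.1% and 33.1%. Immune cells, thinned likewise, showed Edar in 1.15% of control cells (4 of 347) and in 0 of 446 TP cells, which allows a share of up to 0.673%. Their median depths were 1558.5 UMIs in control and 3418 UMIs in TP, against 1768 and 3493.5 UMIs in cluster 0.

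The ligand Eda had its highest level in cluster 16 in both libraries. It reached 1836 CPM in control (6013 UMIs, interval 1790 to 1883) and 2560 CPM in TP (2712 UMIs, 2465 to 2659), a ratio of 1.39 (1.33 to 1.46). Cluster 0 with 553.2 CPM and the dermal papilla-like cluster 9 with 550.2 CPM followed in control with overlapping intervals, and the same pair followed in TP with 654.3 and 649.5 CPM, again overlapping. Dermal fibroblast-like cluster 20 with 403.1 CPM and cluster 7 with 366.9 CPM came next in control and overlapped. A UMI of Eda was found in 72.3% of thinned cluster 16 cells in control (interval 70.0 to 74.5%) and in 80.6% in TP (75.6 to 85.0%), against 7.49% and 2.47% of immune cells. Eda spans 425.2 kb, and whether reads in introns were counted is not given in the sources used here, so its level is not compared with those of the shorter genes.

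Eda was higher in TP in 5 of the 29 clusters with at least 50 UMIs and lower in 17 of them, by intervals that left 1. The higher ones were cluster 7 (366.9 to 546.0 CPM, ratio 1.49, interval 1.43 to 1.55), cluster 16, cluster 0 (ratio 1.18, 1.11 to 1.26) and both larger dermal papilla-like clusters. In cluster 9 Eda went from 550.2 to 649.5 CPM (ratio 1.18, 1.13 to 1.24) and in cluster 11, led by Cdh22, Lypd1, Ndnf, Rspo4 and Tmem132c, from 280.3 to 440.2 CPM (ratio 1.57, 1.42 to 1.73). With the pooled immune level subtracted the ratio of Eda was 2.81 in cluster 7, 1.53 in cluster 16 and 1.70 in cluster 0, and with that of lymphocyte-like cells alone 2.72, 1.52 and 1.64. The greater depth of cluster 7 cells limits the values of that cluster here as well. Among those with a lower level, inner root sheath-like cluster 1 went from 309.8 to 180.9 CPM and the unnamed cluster 5 from 361.0 to 272.3 CPM, both above the immune cells. The inner root sheath-like class went from 187.2 to 92.5 CPM, a ratio of 0.494 that is lower than in any of its clusters because their weights differ between the libraries. IFE suprabasal-like cells from 87.7 to 46.4 CPM, and dermal sheath cup-like cells from 215.5 to 82.2 CPM. The control levels of that class, of IFE suprabasal-like and of dermal sheath cup-like cells were below or overlapped with the 181.1 CPM of the immune cells, whose own ratio was 0.130 (0.0916 to 0.182), and the part of free RNA in these lower levels was not tested. Dermal fibroblast-like cells had 403.1 CPM in control and 294.5 CPM in TP (ratio 0.731, 0.634 to 0.846). With the pooled immune level subtracted the direction turned, with ratios of 1.22 in fibroblast-like cells, 1.22 in cluster 1 and 1.38 in cluster 5, and with lymphocyte-like cells alone the ratios were 1.11, 1.03 and 1.25.

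Edaradd, the adaptor that links EDAR to TRAF6, was broader than its receptor. Its highest level was again in cluster 16, with 165.2 CPM in control (541 UMIs) and 169.0 CPM in TP (179 UMIs). IFE basal-like cluster 13, led by Gm48893, Bmpr1b, Sox6, Cdh13 and Il20ra, had 118.5 CPM and cluster 0 had 112.2 CPM in control, and they overlapped. The mesenchymal classes were low: dermal papilla-like cells had 19.3 CPM in control and 5.90 CPM in TP, and dermal fibroblast-like cells had 22.0 and 4.99 CPM, all below the immune cells of the same library. Of the Edaradd UMIs, 29.2% in control and 24.0% in TP came from clusters 0, 7 and 16.

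In clusters 0, 7 and 16, each taken alone, the Edaradd ratio of TP over control was 1.05 (interval 0.905 to 1.22) in cluster 0, 1.02 (0.859 to 1.21) in cluster 16 and 1.11 (1.01 to 1.22) in cluster 7. The value of cluster 0 joins finer clusters that differed. Edaradd went from 111.7 to 154.8 CPM and from 120.0 to 101.6 CPM (overlapping intervals) in its larger finer clusters. In the smaller one it went from 73.2 to 105.9 CPM, with overlapping intervals. Over clusters 0, 7 and 16 together, whose weights differed between the libraries, the ratio was 0.935 (0.874 to 0.9996). With the pooled immune level subtracted the ratio in each cluster was 1.55, 1.30 and 2.04 in the order cluster 0, 16 and 7, and with that of lymphocyte-like cells alone 1.30, 1.14 and 1.70. Edaradd was lower in TP in IFE basal-like cells, with 99.5 against 73.9 CPM (ratio 0.744, 0.676 to 0.819). The weights of the clusters of this class differed between the libraries, and the ratio was 0.724 (0.632 to 0.830) in cluster 12, 0.733 (0.577 to 0.937) in cluster 18 and 0.911 (0.769 to 1.08) in cluster 13, where it did not leave 1. Edaradd was also lower in IFE suprabasal-like cells, with 52.6 against 29.3 CPM (ratio 0.558, 0.503 to 0.619). The immune cells went from 42.3 to 9.75 CPM, and the part of free RNA in the epidermal values was not tested.

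Tnfrsf19, a receptor known as a Wnt target gene, led in cluster 0 in both libraries. Its level there was 474.7 CPM in control (3547 UMIs, interval 459.2 to 490.6) and 753.5 CPM in TP (1496 UMIs, 715.8 to 792.7), a ratio of 1.59 (1.49 to 1.69). Unlike Edar it was also high in cluster 17, which is led by Vat1l, Soat1, Tchhl1, Sct and Tgm6 and stayed unnamed, with 386.5 CPM in control and 377.1 CPM in TP. IFE basal-like cluster 13 went from 340.1 to 448.9 CPM, a ratio of 1.32 (1.20 to 1.45). Melanocyte-like cells carried it too, at 257.0 CPM in control (340 UMIs) and 159.7 CPM in TP (199 UMIs), above the immune cells in both.

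Tnfrsf19 had ratios on both sides of 1. It was higher in TP in 10 and lower in 10 of the 27 clusters with at least 50 UMIs. The higher ones were keratinocyte classes of the follicle, IFE basal-like cluster 13 and unnamed clusters, with ratios of 1.16 (1.09 to 1.24) in cluster 7, 1.47 (1.26 to 1.71) in cluster 16 and 1.42 (1.18 to 1.73) in lower outer root sheath-like cells beside that of cluster 0. Over both germinative layer-like clusters (0 and 7) together, whose weights differed between the libraries, the ratio was 0.933 (0.895 to 0.972). With the pooled immune level subtracted the ratio was 1.88 in cluster 0, 1.93 in cluster 7 and 2.87 in cluster 16, and with that of lymphocyte-like cells alone 1.82, 1.67 and 2.69. The lower ones included the mesenchymal clusters 9, 11, 20 and 24. Dermal papilla-like cluster 11 went from 184.3 CPM (992 UMIs) to 68.1 CPM (89 UMIs), a ratio of 0.370 (0.294 to 0.460), and dermal sheath cup-like cells went from 52.8 to 9.81 CPM, a ratio of 0.186 (0.0767 to 0.391). The control level of cluster 11 was above the immune cells' 89.4 CPM, while those of clusters 9 (58.1 CPM), 20 (73.3 CPM) and 24 were below it. With the pooled level subtracted the ratio of cluster 11 was 0.405, and lymphocyte-like cells alone gave no value, since the TP level of cluster 11 was below their 75.4 CPM. IFE suprabasal-like cells had 125.5 CPM in control and 76.5 CPM in TP (ratio 0.609, 0.571 to 0.651), which turned to 1.29 with the pooled immune level subtracted but was 0.0439 with that of lymphocyte-like cells alone. The interval of the lymphocyte-like level in TP, 49.7 to 109.8 CPM, holds the 76.5 CPM, so the value of 0.0439 is not bounded. IFE suprabasal-like cells were much deeper than the immune cells, with medians of 7516 UMIs in control and 14617 UMIs in TP. After thinning, the share of cluster 0 cells with a UMI of Tnfrsf19 was 32.9% in control (interval 31.3 to 34.5%) and 50.2% in TP (45.4 to 55.0%).

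**Figure D3:**
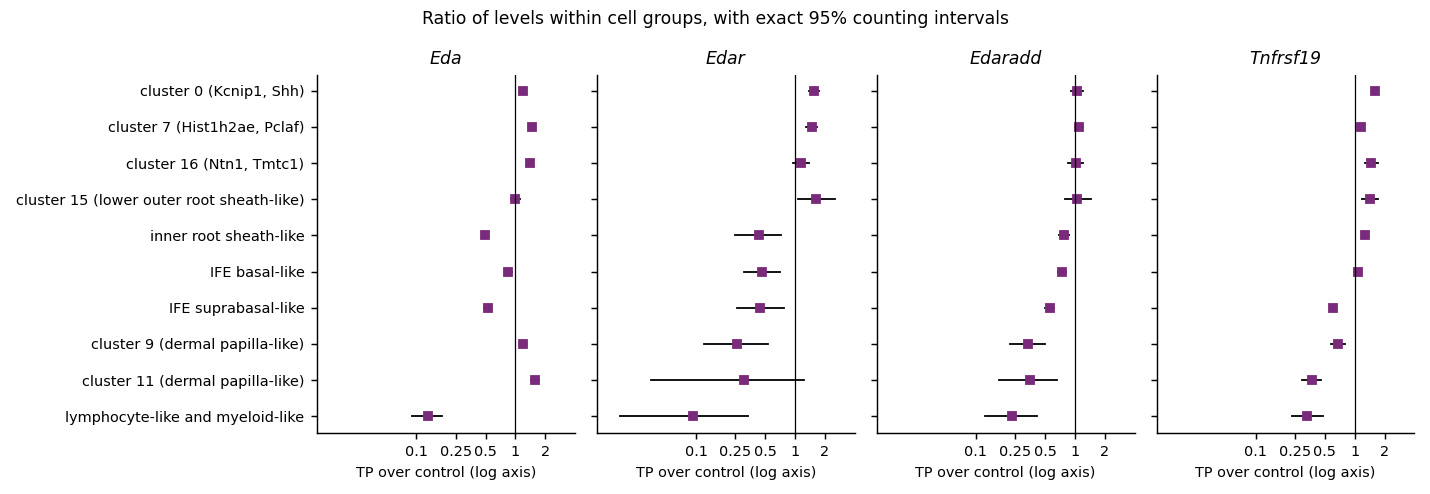
Ratio of TP over control of Eda, Edar, Edaradd and Tnfrsf19 (log axis) within 10 cell groups, with exact 95% counting intervals and a line at 1. Edar and Tnfrsf19 lie above 1 in clusters 0 and 7, all 4 genes lie below 1 in the pooled immune cells, whose make-up differed between the libraries (in lymphocyte-like cells alone only the interval of Eda leaves 1), and Tnfrsf19 in dermal papilla-like cluster 11 lies at 0.370.

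By intervals that left 1, 3 of the 4 genes with at least 50 UMIs were higher in TP in cluster 0, where 13.2% of all genes were. In cluster 7 all 4 were higher, against 19.5% of genes, and in cluster 16 Eda and Tnfrsf19 were, against 9.81%. These shares cover all genes with at least 50 UMIs, and a gene with more UMIs has a narrower interval. Edaradd in cluster 7, with 745 and 1048 UMIs, left 1 at a ratio of 1.11. The finer clusters of cluster 7, in the order given for Edar, shifted in weight. Eda went from 182.7 to 263.7, 465.1 to 583.7 and 656.6 to 829.4 CPM in them. Edaradd went from 73.0 to 75.4, 84.9 to 100.5 and 99.9 to 100.6 CPM, with overlapping intervals in each. Tnfrsf19 went from 227.7 to 338.5, 167.0 to 179.3 and 109.0 to 110.7 CPM, with overlapping intervals in all but the first. Over clusters 0, 7 and 16 together the ratio of Eda was 1.04 (1.01 to 1.07) and that of Tnfrsf19 was 1.00 (0.961 to 1.04). Eda2r did not reach 50 UMIs in any of them, and none of the 4 was lower, where 17.8% of genes were in cluster 0, 19.3% in cluster 7 and 14.6% in cluster 16. With no level subtracted, none of them differed by 2-fold in these clusters, a size reached by 4.41%, 3.51% and 3.97% of genes. In the dermal papilla-like class Edar, Edaradd and Tnfrsf19 were at least 2-fold lower, against 7.22% of genes (4.03% were 2-fold higher and 11.2% differed either way). By intervals these 3 were below 1, against 34.8% of genes, and Eda was above 1, against 22%. Edar and Edaradd were there at or below the immune cells' level in control. Within the class, 2258 of 3909 cells were in cluster 11 in control but 333 of 1642 in TP, so its values also mix a change of make-up, and in cluster 9 alone the ratio of Tnfrsf19 was 0.673 (0.572 to 0.791). In lower outer root sheath-like cells Edar and Tnfrsf19 were higher, against 13.4% of genes, none was lower, against 21.4%, and none differed 2-fold, against 6.86%.

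Eda2r, the receptor of EDA-A2, was highest in clusters other than those that led for Edar. Dermal fibroblast-like cells had 14.7 CPM in control (8 UMIs, interval 6.33 to 28.9) and 9.38 CPM in TP (47 UMIs, 6.89 to 12.5). Endothelial-like cells had 1 UMI in control (3.22 CPM, 0.0816 to 18.0) and 14 UMIs in TP (19.5 CPM, 10.7 to 32.8), and the intervals overlapped. The unnamed cluster 29, led by Myh11, Dgkb, Tagln, Lmod1 and Acta2 and scored nearly alike for skeletal muscle (6.71) and for smooth muscle and pericytes (6.56), had 3 UMIs in control (17.4 CPM) and 0 in TP, which allows up to 7.43 CPM. Among the named classes, upper hair follicle-like cells followed with 10 and 33 UMIs, or 3.42 and 4.26 CPM. No UMI was seen in the immune cells, which allows up to 3.53 CPM in control and 1.54 CPM in TP, and the fibroblast-like level stood above this pooled limit in both libraries. In lymphocyte-like cells alone the 0 UMIs allow up to 8.38 CPM in TP, which lies within the interval of the fibroblast-like level there. In clusters 0, 7 and 16 together Eda2r was at 1.56 CPM in control and 0.891 CPM in TP. At this depth no difference between the libraries was detectable in fibroblast-like cells (ratio 0.640, 0.2995 to 1.57).

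Over the 31 clusters the rank correlation of control and TP levels was 0.938 for Edaradd, 0.881 for Tnfrsf19, 0.860 for Eda, 0.641 for Eda2r and 0.441 for Edar. These values describe clusters that were built on both libraries at once. Only 10 of the 31 clusters had at least 50 UMIs of Edar, and only 1 had as many of Eda2r.

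Cells with and without a UMI of Edar were compared within a cluster after thinning to 1000 UMIs. In cluster 0, Tnfrsf19 was found in 44.3% of the 298 control cells with Edar (interval 38.6 to 50.1%) and in 31.7% of those without (30.1 to 33.4%). In TP it was found in 67.1% of 73 cells with Edar (55.1 to 77.7%) and in 46.8% of those without (41.6 to 52.1%). In this cluster Tnfrsf19 was thus seen more often in cells with Edar than in those without, in both libraries. In cluster 7 the shares were 31.5% and 14.5% in control and 25% and 19.0% in TP, where the intervals overlapped. In cluster 16 they were 15.2% and 12.5% in control and 27.0% and 13.1% in TP, with overlapping intervals in both. For Eda the intervals overlapped, with shares in cluster 0 of 31.5% and 31.1% in control and 32.9% and 37.7% in TP. Edaradd was found in 12.4% and 10.1% of such cells in control and in 13.7% and 10.7% in TP, with overlapping intervals. Co-detection in sparse counts is a description of cells of 1 library each, and finer clusters within cluster 0 differed in both Edar and Tnfrsf19.

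**Figure D4:**
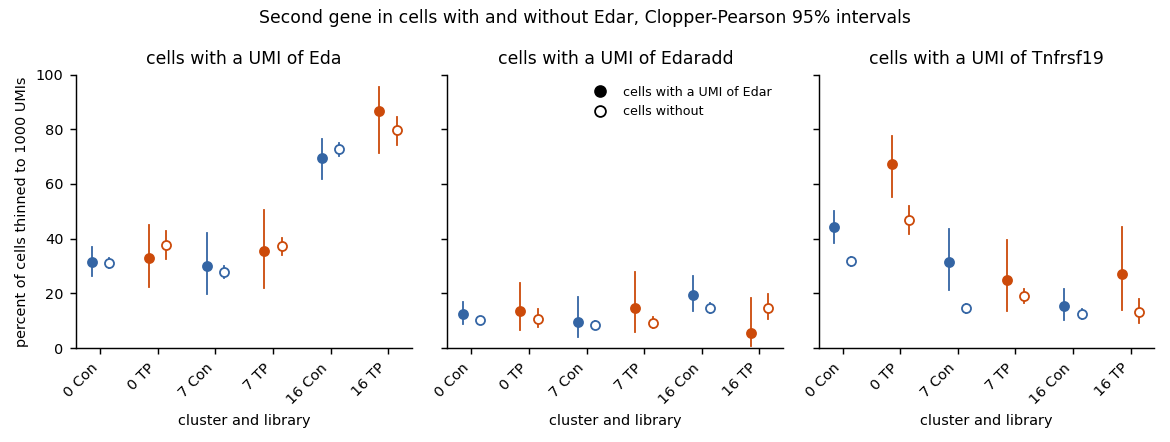
Percent of cells, thinned to 1000 UMIs, with a UMI of Eda, Edaradd or Tnfrsf19 among cells with (filled) and without (open) a UMI of Edar, in clusters 0, 7 and 16 of each library, with Clopper-Pearson 95% intervals. In cluster 0 the shares for Tnfrsf19 are 44.3% and 31.7% in control and 67.1% and 46.8% in TP.

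The genes whose levels were most like those of each member over the 14 named classes of the control library were found among 13020 genes. For Edar they were the replication genes Mcm5 (Pearson r = 0.92, and 0.75 in TP) and Pcna (0.89 and 0.72), and Cep128 (0.88 and 0.34). For Edaradd they were Rpl3 (0.94 and 0.87), Rps3a1 (0.94 and 0.90) and Eif3m (0.94 and 0.75), genes of ribosomes and translation. Tnfrsf19 was most like Zfp850 (0.89 and 0.85), Med19 (0.87 and 0.83) and Atp5b (0.86 and 0.74). Eda was most like Fam92a (0.89 and 0.74), Platr25 (0.83 and 0.53) and Zfp518b (0.83 and 0.47), and Eda2r like Medag (0.84 and 0.49), Hmcn2 (0.82 and 0.28) and Ces2g (0.82 and 0.42). Among the members, Edaradd and Tnfrsf19 were the most alike (0.78 and 0.88), and the r of Eda with Edar was 0.38 and 0.53. The classes share library, depth and free RNA, and the unnamed cluster 16 did not enter. For Edar only 7 of the 14 classes had at least 50 UMIs over both libraries. Within the germinative layer-like class Edar did not follow cycling in control. It was at 39.9 CPM in cluster 7 (cycling score 2.14) and 128.6 CPM in cluster 0 (1.09).

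The adaptors and kinases downstream of the receptors were followed as a list of 11 genes. In cluster 0, 10 of them had at least 50 UMIs, none differed 2-fold, 8 had a log2 ratio below 0, and their median was -0.15, where the median of all genes was -0.05. The genes of the list with most UMIs over all cells were in cluster 0 at these levels: Traf3 (258.4 CPM in control and 246.3 CPM in TP), Tab2, which couples TRAF6 to TAK1 (152.2 and 128.4 CPM), and the kinase Ikbkb (101.2 and 90.2 CPM). In cluster 16 the list had a median of -0.05 and in cluster 7 of -0.13, where the medians of all genes were -0.06 and -0.01. Over all kept cells all 11 had a log2 ratio below 0, with a median of -0.38 beside -0.23 for all genes. None of them differed 2-fold there, a size that 18.2% of all genes reached. Furin, which sheds the ligand, was at 41.1 CPM in control and 57.4 CPM in TP in cluster 0, a ratio of 1.40 (1.12 to 1.74), and had a ratio of 1.22 (0.859 to 1.71) in cluster 16.

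The list of NF-kB subunits and inhibitors had 10 genes with at least 50 UMIs in cluster 0. All 10 had a positive log2 ratio, with a median of 0.86, and 4 were at least 2-fold higher in TP, a size and direction shown by 2% of the 10517 genes there. Nfkbia, the inhibitor that NF-kB itself induces, went from 128.6 CPM (961 UMIs) to 410.5 CPM (815 UMIs), a ratio of 3.19 (2.90 to 3.51). Tnfaip3, which encodes the feedback inhibitor A20, had a ratio of 3.17 (2.48 to 4.06), and the subunit gene Rel one of 2.05 (1.74 to 2.42), while Nfkbie, the last of the 4, had only 42 UMIs in control and 22 in TP. In cluster 7 all 10 genes were above 0 with a median of 0.41, and Nfkbia and Tnfaip3 passed 2-fold, against 1.94% of genes. In cluster 16, 6 genes had 50 UMIs, all above 0, with a median of 0.77, and Rel passed 2-fold, against 1.56% of genes. Over all kept cells 9 of 10 were above 0, with a median of 0.36, and Nfkbia and Tnfaip3 passed 2-fold, against 8.07% of genes. In lower outer root sheath-like cells none of the 9 genes with 50 UMIs passed 2-fold, against 2.68% of genes, and their median was 0.41. The median of all genes was -0.05 in cluster 0, -0.01 in cluster 7 and -0.06 in cluster 16. It was -0.23 over all kept cells and -0.12 in lower outer root sheath-like cells. The share of all genes above 0 was not counted.

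Immediate-early genes, which respond quickly to tissue dissociation as well as to signals, were also higher in TP. A set of 8 of them (Fos, Fosb, Jun, Junb, Jund, Egr1, Atf3 and Ier2), added after the values of the NF-kB list were seen, had a summed level in cluster 0 of 1245 CPM in control and 4531 CPM in TP, and all 8 were at least 2-fold higher. In cluster 7 all 8 passed 2-fold as well, and in cluster 16 the figure was 5 of 8, with sums of 2270 CPM in control and 4603 CPM in TP. In dermal papilla-like cells Edar was at or below the immune cells' level in control. All 8 immediate-early genes passed 2-fold there, with sums of 2124 and 12467 CPM, where 4.03% of genes were at least 2-fold higher. Of the NF-kB list 8 of the 9 genes with 50 UMIs were above 0 in these cells, with a median of 0.61, beside -0.096 for all genes. Nfkbia (ratio 2.29, 2.09 to 2.50) alone was past 2-fold. In lower outer root sheath-like cells, where none of the NF-kB list passed 2-fold, 5 of the 8 did, with sums of 3046 and 6079 CPM. The part of dissociation in the NF-kB values was not tested.

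**Figure D5:**
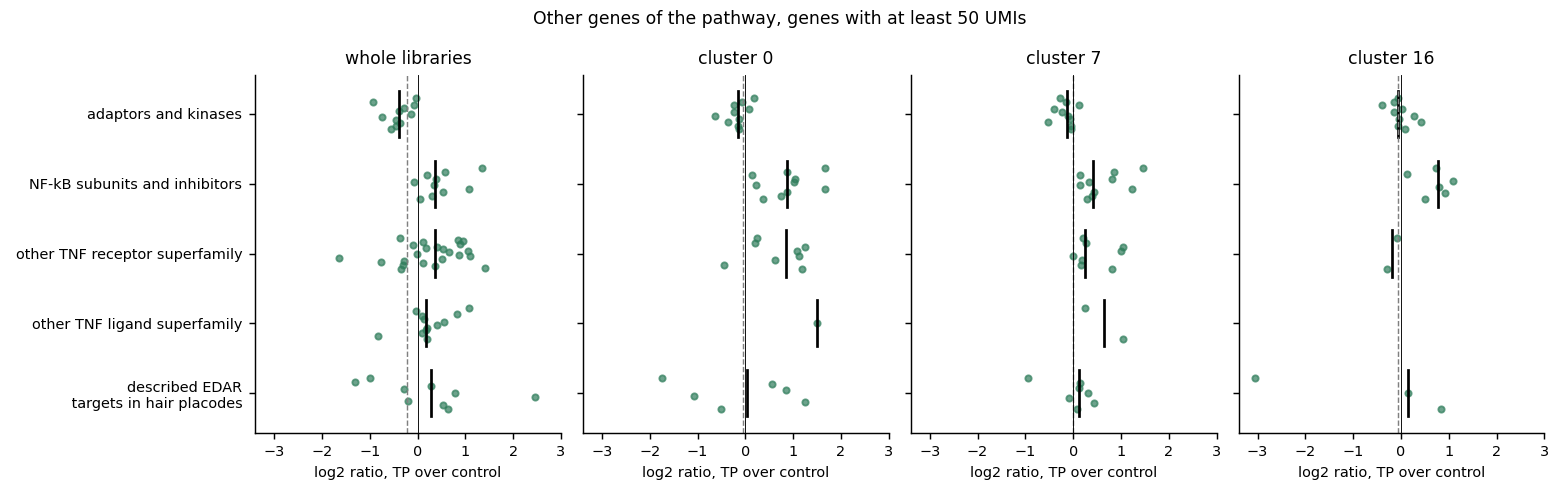
Log2 ratio of TP over control for genes with at least 50 UMIs in 5 lists of pathway genes, over all kept cells and in clusters 0, 7 and 16; each point is a gene, black bars are list medians and the dashed line is the median of all genes. All 10 NF-kB genes lie above 0 in clusters 0 and 7. The median of the adaptors and kinases lies below the dashed line over all kept cells (-0.38) and in cluster 0 (-0.15), with single genes as low as -0.93 and -0.63.

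Genes described as EDAR targets in hair placodes differed in direction. Of 12 genes in the list 11 were in the tables, and 6 of them had 50 UMIs in cluster 0, with 3 above 0 and 3 below it and a median of 0.03. Shh, the signal of placodes and hair matrix, was at 142.3 CPM in control and 210.0 CPM in TP in cluster 0, a ratio of 1.48 (1.31 to 1.66), though over all kept cells it was lower in TP (25.5 and 10.2 CPM). Sostdc1 had its highest level in the dermal papilla-like cluster 9, at 6555 CPM in control and 3321 CPM in TP, and its 47.4 CPM in control in cluster 0 were below the 75.3 CPM of the immune cells. In cluster 0 Sostdc1 (ratio 0.287, 0.187 to 0.425) and Fst (0.460, 0.285 to 0.712) were at least 2-fold lower, against 2.42% of genes, and Cxcl10 (2.37, 1.83 to 3.05) at least 2-fold higher, against 2%. Fst was higher in TP in dermal papilla-like cells, a class whose clusters shifted in weight, with 183.8 and 546.7 CPM, a ratio of 2.98 (2.83 to 3.13). The placode genes Fgf20, Dkk4 and Foxi3 had at most 7 UMIs in cluster 0 of either library. In lower outer root sheath-like cells Foxi3 (2 and 48 UMIs) and Cxcl10 were at least 2-fold higher, against 2.68% of genes, and Pthlh at least 2-fold lower, against 4.17%.

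Other receptors and ligands of the TNF superfamily were mostly sparse in the Edar-bearing clusters. Of 25 other receptor genes 8 had 50 UMIs in cluster 0, with a median log2 ratio of 0.85, and Fas, Tnfrsf10b, Tnfrsf12a and Tnfrsf18 were at least 2-fold higher, where the median of all genes was -0.05 and 2% of genes were that much higher. In cluster 16 only 2 genes of the list had 50 UMIs, both below 0, with a median of -0.19. Tnfrsf12a, the receptor of TWEAK, was at 12.1 CPM in control and 25.2 CPM in TP in cluster 0 (ratio 2.09, 1.45 to 2.99). The most abundant receptor genes of the list over all cells, Tnfrsf1a and Ltbr, had cluster 0 ratios of 1.14 (0.870 to 1.49) and 0.709 (0.447 to 1.08). Of 16 other ligand genes only Tnf had 50 UMIs in cluster 0, with 33.6 CPM in control (251 UMIs) and 94.7 CPM in TP (188 UMIs), a ratio of 2.82 (2.32 to 3.42). In cluster 7 Tnf went from 18.2 to 37.7 CPM (ratio 2.08, 1.73 to 2.50), and in cluster 16, where Eda was highest, no other ligand gene had 50 UMIs. Tnfsf9 and Tnfsf12, the other ligands of this list with most UMIs, had 16 and 4 UMIs in cluster 0 of the control library.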

How the data were processed

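Droplet single-cell RNA sequencing was done on dorsal skin, with 1 library per group. The deposited tables hold the authors' raw counts of UMIs per gene and barcode, made with Cell Ranger 8.0.1 on mm10. Barcodes were kept with 200 to 8000 genes and no more than 10% mitochondrial UMIs, and 3168 control and 1503 TP barcodes (7.5%), those closest to simulated doublets, were dropped. Seurat 5.3.0 joined the libraries by reciprocal PCA on 2000 variable genes, leaving out the members and pathway lists, with 30 components and resolution 1. Clusters took a class name at a mean log2 fold of their markers of at least 0.9, set after the clusters were seen, with at least 3 markers raised and no more markers of another class among the 10 leading genes. Cycling markers gave no name. Levels carry exact Poisson, shares Clopper-Pearson and ratios exact conditional binomial intervals. Log2 ratios had 1 UMI added per library, and genes needed 50 UMIs over both libraries. Thinning to 1000 UMIs dropped 5362 control and 871 TP cells. The scripts' calls and intervals were tested on simulated data. The members and lists were chosen with earlier results of these data known. By rule the 3 genes of a list with most UMIs are given by value, and the other genes named were chosen after their values were seen. TMM factors came from edgeR 4.0.16, and promoters and positions from RefSeq (GRCm38.p6). Python 3.11.15, scipy 1.17.1 and R 4.3.3 were used. Alternatives were TMM scaling, no cell filter, doublets kept, resolutions 0.5 and 2, cells of at least 1000 UMIs, thinning to 2000 UMIs, control cluster weights and, added after seeing the data, subtraction of the level of both immune classes pooled or of lymphocyte-like cells alone.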

Additional observations from a re-analysis of the deposited data

Results flagged for a closer look

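For 4 genes the ratio of TP over control lay above 1 in 1 cluster and below 1 in another, each by an interval that left 1. The difference between the clusters was not tested, since each group is 1 library. How many of all genes met this rule was not counted, so it is not read as particular to these 4. Among clusters with at least 50 UMIs of the gene, the extremes were, for Eda, 1.57 in dermal papilla-like cluster 11 and 0.0880 in myeloid-like cluster 28 (37 and 24 UMIs). For Edar they were 1.62 in lower outer root sheath-like cluster 15 and 0.441 in the unnamed cluster 5 (145 and 22 UMIs). For Edaradd they were 1.11 in cluster 7 and 0.332 in dermal papilla-like cluster 9 (90 and 36 UMIs). For Tnfrsf19 they were 1.59 in cluster 0 and 0.186 in dermal sheath cup-like cluster 24 (59 and 8 UMIs). Cluster 28 is itself immune, and in clusters 5, 9 and 24 the control level was below the immune cells' level or overlapped with it, and the part of free RNA was not tested.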

How the results depend on the processing

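The ratios over all kept cells turned above 1 with the cluster weights of control for Eda, Edar and Tnfrsf19 (1.07 for Eda, 1.18 for Edar, 0.821 for Edaradd, 0.798 for Eda2r and 1.11 for Tnfrsf19). With TMM scaling they were 0.855 for Eda, 0.694 for Edar, 0.798 for Edaradd and 0.921 for Tnfrsf19, with doublets kept 0.653 for Eda, 0.512 for Edar, 0.644 for Edaradd and 0.751 for Tnfrsf19, and with all deposited barcodes 0.679 for Eda and 0.549 for Edar. In the leading named class, germinative layer-like cells for 4 genes and IFE basal-like cells for Eda2r, TMM scaling gave 1.38 for Eda, 1.10 for Edar, 1.10 for Edaradd and 1.03 for Tnfrsf19, classes rebuilt at resolution 0.5 gave 1.55 for Eda, 1.45 for Edar, 1.12 for Edaradd and 1.24 for Tnfrsf19, and at resolution 2 1.16 for Eda, 1.18 for Edar, 0.849 for Edaradd and 1.13 for Tnfrsf19. With the level of the pooled immune cells, whose make-up differed between the libraries, subtracted in each library that class gave 2.00 for Eda, 1.23 for Edar, 1.60 for Edaradd and 1.17 for Tnfrsf19, so the value of Tnfrsf19 there, 0.933 as reported, reversed under TMM, both other resolutions and subtraction. The same subtraction gave in cluster 0 1.70 for Eda, 1.77 for Edar, 1.55 for Edaradd and 1.88 for Tnfrsf19. In cluster 7, whose cells were deeper than the immune cells, it gave 2.81 for Eda, 2.44 for Edar, 2.04 for Edaradd and 1.93 for Tnfrsf19. In cluster 16 it gave 1.53 for Eda, 1.30 for Edaradd and 2.87 for Tnfrsf19. Over all kept cells it gave 1.68 for Eda, 1.88 for Edar, 1.41 for Edaradd and 1.17 for Tnfrsf19, all reversed, and it reversed Eda in clusters 1 (1.22), 5 (1.38) and 20 (1.22) and Tnfrsf19 in cluster 4 (1.29). The Edar value over all kept cells rests on 14 control and 3 TP UMIs of Edar in the immune cells. With the level of lymphocyte-like cells alone subtracted, the ratios over all kept cells were 1.47 for Eda, reversed, and 0.350 for Edar, 0.408 for Edaradd and 0.816 for Tnfrsf19, not reversed. Those of Edar and Edaradd are not bounded, since the interval of the lymphocyte-like level in TP holds the whole-library level. In the leading class the ratios were 1.92 for Eda, 1.26 for Edaradd and 1.02 for Tnfrsf19, the last reversed, and 0.998 for Edar. They were 1.64 for Eda, 1.30 for Edaradd and 1.82 for Tnfrsf19 in cluster 0, 2.72 for Eda, 1.70 for Edaradd and 1.67 for Tnfrsf19 in cluster 7, and 1.52 for Eda and 2.69 for Tnfrsf19 in cluster 16, while Edar stayed within its interval in all 3. Eda again reversed in clusters 1 (1.03), 5 (1.25) and 20 (1.11). Tnfrsf19 in cluster 4 was 0.0439, which is not bounded, since the lymphocyte-like interval in TP holds the level of that cluster. For Tnfrsf19 in cluster 11 no value could be had, since its TP level was below that of lymphocyte-like cells. TMM scaling and cells of at least 1000 UMIs moved none of the ratios in clusters 0, 7 and 16 out of their intervals. Genes at least 2-fold different numbered 3190, and 7054 of 26217 where 1 UMI sufficed. The causes were not tested. No paired analysis was possible because each group has 1 library. Eda2r is limited by depth in every class.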
